A study of Mus musculus with 8 samples.

Results

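The genes described here lost most of their mRNA within 3 h of lipopolysaccharide (LPS) in both BMDM and hMPDM, and they were chosen by those measured values. The deposited table holds 43346 genes, of which 9348 had a level of at least 5 CPM (counts scaled to the library total) at rest in BMDM, as the mean of 2 libraries, and in hMPDM. Of these 9348 genes, 511 (5.47%) kept at most 0.4 of their resting CPM after LPS in both cell types. TMM scaling, which sets the library sizes by the bulk of the genes, raises the log2 ratios by 0.37 in BMDM and 0.38 in hMPDM and leaves 245 of them. Because the rule used these values, the responses of the 511 genes in BMDM and hMPDM describe the choice and were not tested. The macrophage line RAW played no part in the choice.

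LPS, a cell wall component of Gram-negative bacteria, is sensed by TLR4 and switches macrophages from a resting programme to an inflammatory one. The response is best known for induced cytokines and interferon-stimulated genes, but macrophages also reduce the mRNA of many regulators of lineage, migration and growth. How fast an mRNA level can fall depends on its decay as well as on its transcription.

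Polyadenylated RNA of mouse macrophages was sequenced without stimulation (0 h, called rest) and after 3 h with LPS. BMDM, macrophages grown from bone marrow in L929-conditioned medium, had 2 libraries per state. For hMPDM and RAW 264.7 (RAW), a macrophage-like mouse tumour line, there was 1 library per state. The deposited table also holds 2 columns named as replicate 1 of hMPDM, which match no sample and were not used. The labels give no genotype, strain, sex or age, no LPS dose and no meaning for the abbreviation hMPDM. Whether the 2 BMDM libraries of a state came from separate cultures is not given either. Spread between the BMDM replicates may thus be technical, and values of hMPDM and RAW have no replicate error.

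Libraries held between 3116434 (RAW at rest) and 19307312 counts (BMDM at rest, replicate 2), and a gene without a read could still lie at 0.155 CPM in the deepest and 0.963 CPM in the shallowest library (3 counts). All 10 macrophage markers examined were past the floor of 5 CPM, and their summed level was between 14912 and 20461 CPM in the 8 libraries. Summed markers of B cells, T and NK cells, dendritic cells, mast cells, fibroblasts and erythroid cells reached at most 3.43 CPM in any library. Neutrophil markers summed to between 104 and 112 CPM in BMDM, 44.3 and 41.2 in hMPDM and 15.1 and 13.7 in RAW. Progenitor markers, mostly Cd34, moved from 33.5 and 37.4 to 23.8 and 20.8 CPM in BMDM, moved from 49.9 to 24.7 CPM in hMPDM, and were at most 0.245 CPM in RAW. Endothelial markers, nearly all Kdr, moved from 100 and 102 to 60.5 and 55.8 CPM in BMDM and from 71.4 to 92.7 CPM in hMPDM. No marker of these other cell types is among the 511 genes, and their part in the results was not tested. In bulk RNA, fewer cells of a type and less RNA per cell cannot be told apart.

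A set of 15 genes was chosen for an hMPDM resting level of at most 5% of that of BMDM. Pooled, they stood at 1.31% of the BMDM level at rest, which the choice fixes as low. After LPS, where the choice sets no limit in hMPDM, they stood at 10.7% of the BMDM level. Whether this share comes from BMDM RNA or from hMPDM was not tested. After subtracting that share of the BMDM LPS level from the hMPDM LPS library, 499 genes met the rule, 495 of them among the 511.

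Of the 511 genes, 368 had a promoter in the RefSeq table (GRCm38.p6, 250 bases before to 50 after the start). The promoters of Sox4, Cxcr4 and Dtl are shown because these genes are among the 10 with the deepest loss and stand for a lineage factor, a trafficking receptor and a replication regulator. They lie at chr13:28953650-28953949, chr1:128592250-128592549 and chr1:191575495-191575794, each on the minus strand, and capitals mark the motifs found on either strand.
Sox4: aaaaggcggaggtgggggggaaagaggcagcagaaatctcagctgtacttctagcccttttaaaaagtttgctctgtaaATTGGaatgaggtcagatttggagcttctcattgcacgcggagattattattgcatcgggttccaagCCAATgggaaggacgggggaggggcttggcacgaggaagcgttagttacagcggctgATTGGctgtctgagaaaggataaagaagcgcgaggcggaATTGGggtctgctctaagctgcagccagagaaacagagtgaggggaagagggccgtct
Cxcr4: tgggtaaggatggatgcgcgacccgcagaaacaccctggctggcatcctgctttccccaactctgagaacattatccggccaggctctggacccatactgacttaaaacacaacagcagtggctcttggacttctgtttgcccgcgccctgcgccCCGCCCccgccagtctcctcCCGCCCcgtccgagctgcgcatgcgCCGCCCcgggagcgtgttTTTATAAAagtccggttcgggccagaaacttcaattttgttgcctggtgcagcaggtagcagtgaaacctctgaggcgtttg
Dtl: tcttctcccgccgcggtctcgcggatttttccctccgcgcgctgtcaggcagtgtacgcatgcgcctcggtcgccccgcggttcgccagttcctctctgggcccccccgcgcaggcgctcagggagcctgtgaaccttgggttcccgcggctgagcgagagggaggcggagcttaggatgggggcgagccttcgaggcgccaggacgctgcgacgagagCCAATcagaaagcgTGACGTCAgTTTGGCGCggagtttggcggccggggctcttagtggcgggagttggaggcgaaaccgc
The Sox4 promoter holds the CCAAT box 4 times. That of Cxcr4 holds overlapping TATA boxes on the 2 strands, about 30 bases before the start, and the GC box 3 times. That of Dtl holds a CCAAT box, a cyclic AMP response element and an E2F site close to the start. The letters searched on both strands were TATAAA (in 13.6% of all 32851 promoters of the table), GGGCGG (35.7%), CCAAT (37.4%), the E-box CACGTG (7.15%), the E2F sites TTTGGCGC (0.514%) and TTTCGCGC (0.323%), the ETS site CCGGAAG (8.86%), TGACGTCA (1.79%) and the AP-1 site TGANTCA (7.81%). These rates are no background for expressed genes. In the 7124 promoters matched for genes past the floor, GGGCGG was in 68.7%, CCAAT in 39.0% and TATAAA in 6.11%. TGACGTCA was in 3.64% of them and TTTGGCGC in 1.24%. A match is a description of these letters and shows no binding. A comparison of promoters with other genes is void, because only 72.0% of the 511 genes and 76.2% of the genes past the floor had one in the table.

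The rule capped every ratio at 0.4 in both BMDM and hMPDM, so the depth and closeness of the losses given here describe the choice. The LPS to rest ratio of CPM among the 511 genes had a median of 0.281 in BMDM (0.0189 to 0.399) and 0.269 in hMPDM (0.0139 to 0.3999). On the log2 scale the medians were -1.82 and -1.88, beside -0.37 and -0.39 over all 9348 genes past the floor. The summed level of the 511 genes moved from 34356 and 34790 to 9224 and 9250 CPM in BMDM. In hMPDM it moved from 37477 to 10576 CPM. For none of the 511 genes did the BMDM libraries of the 2 states overlap.

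The ratios of the 2 cell types lay within 1.5-fold of each other for 423 genes, and both were at most 0.2 for 65 genes and at most 0.1 for 7. The hMPDM ratio was below that of BMDM for 277 genes and above it for 234. The BMDM limit alone was met by 158 further genes, with a median hMPDM ratio of 0.448, and the hMPDM limit alone by 281, with a median BMDM ratio of 0.463. Genes just inside the limit were Arhgap39 (0.369 in BMDM, 0.3999 in hMPDM), Nedd9 (0.242 and 0.399) and Thap6 (0.318 and 0.399). Just outside were Eif2ak3 (0.342 and 0.4001), E2f6 (0.4003 and 0.378) and Lrsam1 (0.4005 and 0.333). The limit thus cuts through a continuous range, as the scatter of responses shows.

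**Figure D1:**
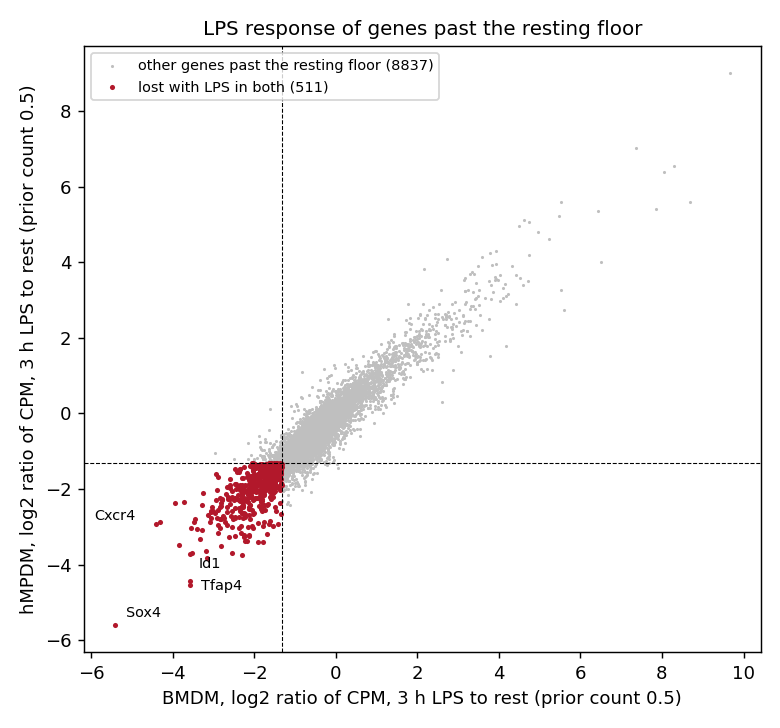
LPS response of the 9348 genes past the resting floor, as the log2 ratio of CPM after 3 h LPS to rest, in BMDM (horizontal, means of 2 libraries) and hMPDM (vertical, 1 library per state). Red points are the 511 genes with a ratio of at most 0.4 (dashed lines) in both, grey points the other 8837 genes, and the red points run down to Sox4 at the lower left.

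Sox4, a transcription factor of lymphoid and progenitor cells, had the deepest loss of all. It stood at 9.06 and 11.4 CPM in BMDM at rest, 0.125 and 0.262 CPM in BMDM after LPS, and 13.1 CPM in hMPDM at rest. A single count remained in hMPDM after LPS, a ratio of 0.0139 (95% counting interval 0.00035 to 0.0783), and neither RAW library held a count. Both cell types were high at rest and near the counting limit after LPS, and RAW could not lose what was not detected at its depth.

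Tfap4, a basic helix-loop-helix factor known as a MYC target, moved from 6.32 and 6.11 to 0.752 and 0.197 CPM in BMDM. In hMPDM it moved from 6.27 CPM to 0.181 CPM, which is 1 count (ratio 0.029, interval 0.000726 to 0.165), and in RAW from 18.6 to 11.5 CPM. RAW thus held the highest resting level of the 3 cell types and kept a ratio of 0.619 (0.412 to 0.926). Intervals of ratios are exact binomial intervals, which cover counting error alone because the reads carry no molecular identifiers.

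Cxcr4, the receptor for the chemokine CXCL12 that holds leukocytes in the bone marrow, moved from 119 and 128 to 5.64 and 5.83 CPM in BMDM. It moved from 74.5 to 9.80 CPM in hMPDM and from 107 to 33.6 CPM in RAW. The LPS libraries were the low ones in all 3 cell types, with ratios of 0.0466 in BMDM, 0.132 in hMPDM and 0.315 (0.256 to 0.386) in RAW.

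Id1, an inhibitor of helix-loop-helix factors and a target of BMP signalling, moved from 43.8 and 50.7 to 3.76 and 4.06 CPM in BMDM and from 27.3 to 2.00 CPM in hMPDM. In RAW it moved from 13.5 to 11.03 CPM. The RAW ratio of 0.819 had an interval from 0.526 to 1.28, so no change was detectable at this depth. Lpar5, a receptor for lysophosphatidic acid, was similar, with ratios of 0.0837 in BMDM, 0.0710 in hMPDM and 0.686 (0.422 to 1.11) in RAW.

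Dtl, the substrate receptor of a ubiquitin ligase that degrades the licensing factor CDT1, moved from 36.7 and 37.3 to 3.64 and 4.46 CPM in BMDM. It moved from 33.0 to 2.54 CPM in hMPDM and from 78.0 to 32.1 CPM in RAW, a ratio of 0.412 (0.331 to 0.512). RAW again started from the highest level and was lower after LPS. Thbd (thrombomodulin, the anticoagulant cofactor of thrombin), C130050O18Rik, Gm38248 and Fam78a complete the 10 deepest losses, with ratios between 0.0410 and 0.125 in BMDM and hMPDM. Their RAW ratios were between 0.450 and 0.764, with Gm38248 under 5 CPM there.

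**Figure D2:**
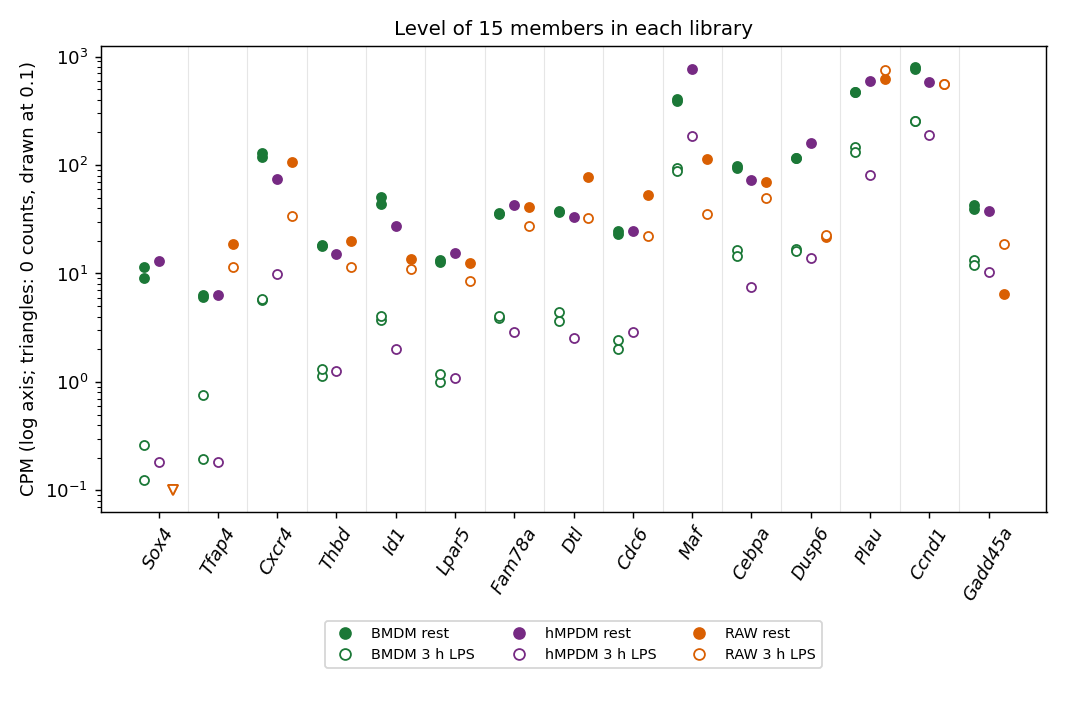
CPM of 15 of the genes in each library on a log axis, green for BMDM, purple for hMPDM and orange for RAW, with filled points at rest, open points after 3 h LPS and the triangle at the foot for Sox4, which had 0 counts in both RAW libraries. Open points lie well below filled ones in BMDM and hMPDM throughout, while in RAW they lie close to or above them for Id1, Dusp6, Plau, Ccnd1 and Gadd45a.

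Abundant genes were affected too, although the median resting level of the 511 genes, 30.8 CPM in BMDM, was below the 45.7 CPM of all genes past the floor. In BMDM at rest the gene with the most counts was Thbs1, encoding the secreted matrix protein thrombospondin-1. It moved from 1951 and 2158 to 588 and 596 CPM in BMDM. Thbs1 was also first per length in BMDM, at 338 CPM per kilobase at rest, followed by Ccnd1 (205), Plau (199) and Scd2 (162). Thbs1 moved from 877 to 342 CPM in hMPDM and from 16.4 to 5.64 CPM in RAW, so that it was lower after LPS in all 3 cell types from very different levels. Scd2, a fatty acid desaturase, had ratios of 0.278, 0.393 and 0.786 in BMDM, hMPDM and RAW. Its resting level was 883 CPM in BMDM and 1653 CPM in RAW. In hMPDM it was 3308 CPM, the highest of the 511 genes there. Pdxk, the kinase that activates vitamin B6, had 0.258, 0.257 and 0.711, and Inpp5d, the lipid phosphatase SHIP1 that opposes PI3K, had 0.208, 0.203 and 0.592. Plau, the urokinase that activates plasminogen, moved from 467 and 467 to 145 and 132 CPM in BMDM, from 594 to 80.9 CPM in hMPDM and from 624 to 750.3 CPM in RAW. RAW thus held the highest level at rest and was the only cell type with the LPS library above the resting one for this gene.

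In RAW, which the rule did not use, most of the same genes were also lower after LPS. The choice of genes for low ratios in BMDM and hMPDM itself favours a smaller fall in RAW, so the sizes are a description. TMM scaling also raises the log2 ratios by 0.37 in BMDM and 0.38 in hMPDM, but by 0.10 in RAW. At rest 448 of the 511 genes reached 5 CPM in RAW. Of these, 82 (18.3%) kept at most 0.5 of their resting CPM, against 2.15% of all 9536 genes at that level in RAW and 0.826% of the 8471 others past the BMDM and hMPDM floor. A ratio of at most 0.4 was found for 27 (6.03%), against 0.807% of all genes and 0.272% of the others. The 82 genes are 40% of all genes at 5 CPM in RAW at rest with a ratio of at most 0.5. A further 333 had a ratio between 0.5 and 1, and 33 had 1 or more. The median ratio was 0.672, beside 0.934 for all genes and 0.945 for the others past the floor. Below 1 were 92.6% of the 448 genes, 64.1% of all genes and 62.7% of the others.

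With 1 RAW library per state there is no test, and these shares describe the pair of libraries. The counting interval lay below 1 for 284 of the 448 genes (63.4%), against 21.5% of the others past the floor and 23% of all genes. It lay above 1 for 6 (1.34%), against 11.9% and 11.3%. TMM scaling multiplies each RAW ratio by 1.07, which leaves 395 of the 448 below 1. Genes with the deeper loss in BMDM and hMPDM also had the lower RAW ratios. Depth was the mean of the BMDM and hMPDM log2 ratios (prior count of 0.5), expressed as a ratio. A RAW ratio of at most 0.5 was found for 26 of 89 genes (29.2%) with a depth under 0.2. It was found for 36 of 162 (22.2%) between 0.2 and 0.3, and 20 of 197 (10.2%) above 0.3. Across the 448 genes the log2 ratios of RAW correlated weakly with those of BMDM (Pearson r 0.21) and hMPDM (0.20), as a description over genes chosen in a narrow range.

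**Figure D3:**
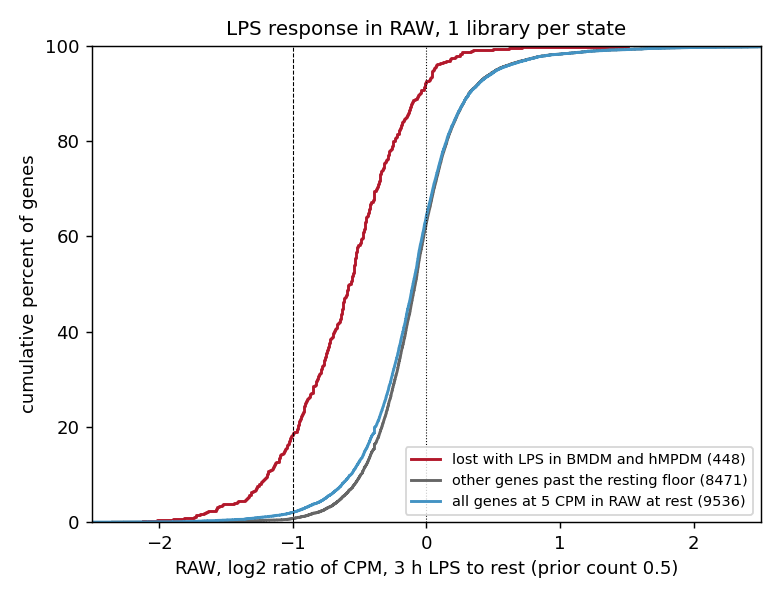
Cumulative percent of genes by their log2 ratio of CPM after 3 h LPS to rest in RAW (1 library per state), for the 448 genes lost in BMDM and hMPDM, the 8471 other genes past the resting floor and all 9536 genes at 5 CPM in RAW at rest. The red curve lies to the left, with 18.3% of its genes at or below the dashed line of 2-fold lower, against 0.826% and 2.15%.

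The lowest RAW ratios among the 448 were those of Zfand4 (0.222, interval 0.0929 to 0.477), Cytip (0.239), an unnamed gene at chr4:134741554-134743421 (0.262), Zfp395 (0.275), Trp53inp1 (0.296), D3Ertd751e (0.296), Arl4c (0.302) and Maf (0.308, 0.252 to 0.375). Cytip encodes a cytohesin partner that limits leukocyte adhesion and Trp53inp1 a p53-induced stress protein. Maf, a large MAF factor that restrains macrophage self-renewal in the mouse, is the best counted of them. It moved from 392 and 405 to 94.6 and 87.9 CPM in BMDM, from 761 to 183 CPM in hMPDM and from 114 to 35.1 CPM in RAW, so each cell type kept between 0.229 and 0.308 of its level.

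At the other end, 6 of the 448 genes had the highest RAW ratios. Gadd45a, a stress-induced growth arrest gene, moved from 6.42 to 18.6 CPM in RAW (ratio 2.90, 1.76 to 5.02). In BMDM it moved from 39.6 and 43.1 to 13.4 and 12.1 CPM, and in hMPDM from 37.9 to 10.3 CPM. Fosl2, an AP-1 subunit, had ratios of 0.208 in BMDM, 0.145 in hMPDM and 1.54 (1.19 to 2.00) in RAW. The RAW library after LPS was the high one for both genes, while the LPS libraries of BMDM and hMPDM were the low ones. For 6330403L08Rik (1.67), Gm26532 (1.42) and the kinase gene Plk3 (1.28) the RAW interval included 1, and the noncoding host gene Snhg17 had 1.26 (1.02 to 1.57). The strand setting of the counting is not given in the sources used here, so reads of overlapping or antisense genes such as Gm26532 and Snhg17 cannot be told apart with certainty.

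The other 63 genes were under 5 CPM in RAW at rest, 27 of them under 1 CPM and 15 with no count. Of the 63, 58 were still under 5 CPM after LPS. The genes are grouped below by lists of known functions. The lists were chosen with earlier results of these data known, so a list's share may be raised by the choice of its genes. Each share among the genes past the floor is printed beside 5.47% as a description and was not tested. RAW values are printed beside the median of 0.672. At least 1 list holds 144 of the 511 genes, and some genes stand on more than one.

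Of the transcription regulators past the floor, 21 of 78 (26.9%) are among the 511, including factors of the myeloid lineage. Cebpa, the factor that commits progenitors to the myeloid lineage, moved from 96.9 and 93.0 to 16.3 and 14.5 CPM in BMDM, from 72.3 to 7.44 CPM in hMPDM and from 70.0 to 50.0 CPM in RAW. Its RAW libraries were much closer together, at a ratio of 0.715 (0.588 to 0.869). Mef2c, a MADS-box factor of myeloid cells, had ratios of 0.279, 0.348 and 0.814, and the nuclear receptor Rxra had 0.240, 0.280 and 0.584. The 17 regulators at 5 CPM in RAW had a median ratio of 0.641, all below 1, and 4 were at most 0.5. On the same list 10 of the 78 genes had a ratio of at least 2.5 in both BMDM and hMPDM. Of all 9348 genes past the floor, 313 had such a ratio.

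Receptors coupled to G proteins made up 12 of 38 (31.6%). S1pr1, the sphingosine-1-phosphate receptor that guides exit from tissues, moved from 217 and 227 to 51.5 and 56.5 CPM in BMDM, from 134 to 27.2 CPM in hMPDM and from 114 to 51.0 CPM in RAW. Its RAW ratio of 0.449 (0.376 to 0.534) was higher than the 0.243 of BMDM and the 0.204 of hMPDM, with the LPS library low in each. Lpar6, a lysophosphatidic acid receptor, had ratios of 0.103, 0.187 and 0.411, and Cnr2, the cannabinoid receptor of immune cells, had 0.138, 0.179 and 0.678. Ccr1, a receptor for CC chemokines, had 0.322 and 0.370 and was only 3.85 CPM in RAW at rest. Of the 8 receptors at 5 CPM in RAW, 3 were at most 0.5, with a median of 0.5996. Among other surface receptors and adhesion molecules 4 of 68 (5.88%) were lost, Thbd, Cd300lb, Il6ra and Sema4b. Cd300lb, an activating receptor of myeloid cells, had ratios of 0.132 and 0.206 and moved from 220 to 262 CPM in RAW (1.19, 1.08 to 1.31).

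Feedback inhibitors and targets of the ERK pathway made up 8 of 23 (34.8%). Dusp6, a phosphatase that inactivates ERK, moved from 116 and 115 to 16.9 and 16.2 CPM in BMDM and from 161 to 14.0 CPM in hMPDM. Its RAW levels of 21.5 CPM at rest and 22.8 CPM with LPS gave a ratio of 1.06 (0.766 to 1.47). The RAW libraries thus lay together near the LPS level of the other cell types. Dusp7, a related phosphatase (0.238, 0.215 and 1.03), Spred2, an inhibitor of RAS signalling (0.374, 0.258 and 1.03), and the ETS factor Etv5 (0.204, 0.231 and 0.886) also had a far higher ratio in RAW than in BMDM and hMPDM. Ccnd1, the cyclin that carries growth factor signals to the G1 kinases, moved from 775 and 799 to 255 and 252 CPM in BMDM and from 587 to 189 CPM in hMPDM. It was 562 and 560 CPM in RAW, a ratio of 0.997 (0.937 to 1.06). Of the 6 list members at 5 CPM in RAW none was at most 0.5 and the median ratio was 1.01. Of these 6, 3 were below 1, or 2 under TMM scaling. Myc, the growth factor-induced regulator of biosynthesis, had ratios of 0.135 and 0.312, but in RAW it was 2.25 CPM at rest (7 counts) and 18.1 CPM after LPS (74 counts). Spry2, a feedback inhibitor of receptor tyrosine kinase signalling, was under 5 CPM in RAW as well and went the other way, from 9 counts to 1, with ratios of 0.303, 0.332 and 0.0849 (0.00194 to 0.613).

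Of the G1/S and replication genes, 17 of 54 (31.5%) are among the 511, and their levels were lower after LPS in RAW too. None of the 54 had a ratio of at least 2.5 in both BMDM and hMPDM, beside 313 of all 9348 genes past the floor. The BMP, mitosis, clock and lipid lists held no such gene either. Cdc6, which loads the replicative helicase, moved from 23.0 and 24.7 to 2.01 and 2.42 CPM in BMDM, from 24.8 to 2.90 CPM in hMPDM and from 52.6 to 22.1 CPM in RAW. Its RAW ratio was 0.419 (0.321 to 0.546), with the LPS libraries low throughout. The helicase subunit gene Mcm2 had ratios of 0.355, 0.324 and 0.593, the licensing factor Cdt1 had 0.287, 0.395 and 0.667, and Clspn, a checkpoint adaptor at replication forks, had 0.191, 0.175 and 0.438. Uhrf1 (0.319, 0.260 and 0.597) and Dnmt1 (0.302, 0.306 and 0.582), which together copy DNA methylation to new strands, were close to each other. The 17 genes had a median RAW ratio of 0.516 and 7 were at most 0.5. All 17 were below 1, or 16 under TMM scaling, which turns Ccnd1. Of the mitotic genes, 4 of 41 (9.76%) are among the 511, Kif23, Cdc25b, Kif20b and Ccsap, with RAW ratios between 0.464 and 0.712. Over all genes past the floor on each list, the median log2 ratio was -1.15 in BMDM and -1.02 in hMPDM for mitosis, beside -1.19 and -1.34 for G1/S and replication.

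DNA repair and checkpoint genes made up 16 of 42 (38.1%). Brca1, a mediator of homologous recombination, moved from 55.3 and 56.0 to 15.4 and 15.9 CPM in BMDM, from 45.5 to 14.9 CPM in hMPDM and from 101 to 46.1 CPM in RAW (0.455, 0.377 to 0.546). Msh6, a mismatch recognition subunit, had ratios of 0.227, 0.105 and 0.457, and Ung, the glycosylase that removes uracil from DNA, had 0.167, 0.0691 and 0.372. All 16 were below 1 in RAW under both scalings, 9 were at most 0.5, and their median was 0.493. The mismatch repair gene Pms2, the nuclease Exo1, Brca2 and the kinases Chek1 and Chek2 were also among them. Chromatin modifiers were near the background share, at 6 of 90 (6.67%), with Dnmt1, Hdac5, Kmt5c, Kdm2b, Suv39h2 and the Polycomb gene Cbx2.

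Clock genes made up 6 of 16 (37.5%). The transcriptional repressors Bhlhe41 (0.202, 0.162 and 0.882) and Bhlhe40 (0.1996, 0.206 and 0.905), the period genes Per1 (0.195, 0.356 and 1.16) and Per3 (0.395, 0.262 and 1.06), and the PAR factors Tef (0.394, 0.361 and 0.774) and Dbp (0.205, 0.174 and 0.382) had a median RAW ratio of 0.893. Only Dbp was at most 0.5 in RAW, on 22 and 11 counts.

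Of BMP and TGF-beta genes, 4 of 23 (17.4%) were lost, Id1, the inhibitory Smad6 and Smad7 and the co-repressor Ski, with RAW ratios between 0.527 and 0.837. FoxO and PI3K linked genes made up 6 of 34 (17.6%). Pik3cg, the catalytic subunit of a leukocyte PI3K, moved from 165 and 174 to 62.8 and 60.3 CPM in BMDM and from 233 to 68.8 CPM in hMPDM. It was 137 and 142 CPM in RAW, so that only BMDM and hMPDM differed between states. Foxo3 had ratios of 0.213, 0.262 and 0.641, and Tsc22d3, the glucocorticoid-induced GILZ gene, had 0.344, 0.389 and 0.439.

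Regulators of small GTPases were the longest group, at 22 of 122 (18.03%), among them Arhgap45 (0.319, 0.315 and 0.762), Rasa3 (0.226, 0.323 and 0.491), Iqsec1, Arhgap25 and Arhgap19. The 20 at 5 CPM in RAW were all below 1 there, with a median of 0.698. Zinc finger genes were near the background at 19 of 260 (7.31%) and included Zfp36l1 and Zfp36l2, whose products promote mRNA decay. Lipid genes were 4 of 37 (10.8%), Scd2, Acsl3, Elovl6 and Lpin1. LPS sensing genes were 2 of 43 (4.65%), Tlr13, a sensor of bacterial ribosomal RNA, and Tlr5, the flagellin receptor. A ratio of at least 2.5 in both cell types was found for 11 of the 43, beside 313 of all 9348 genes past the floor. The apoptosis list gave Bmf alone (1 of 26, 3.85%).

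**Figure D4:**
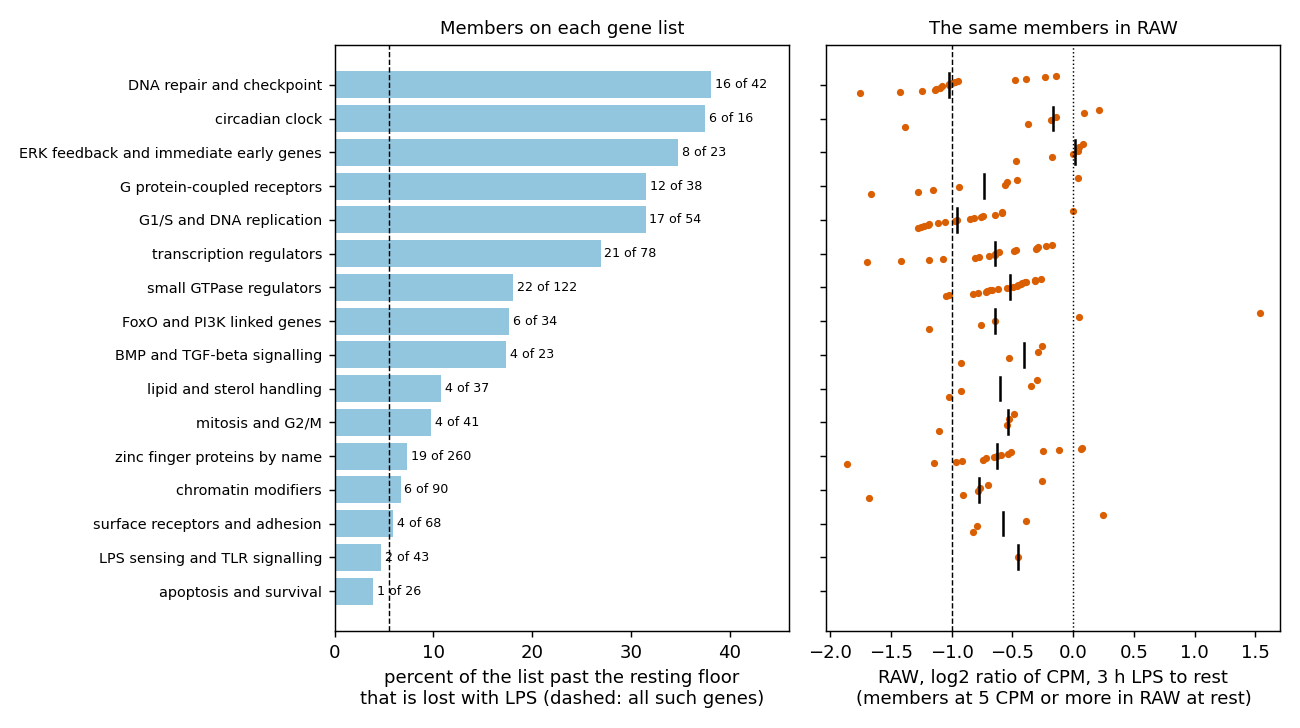
Left, percent of each of 16 gene lists past the resting floor that is lost with LPS in BMDM and hMPDM, with the number of genes on each bar and a dashed line at 5.47%. Right, log2 LPS to rest ratio in RAW of those genes at 5 CPM in RAW at rest (points, black bars are medians), where DNA repair and G1/S genes centre near 2-fold lower and ERK feedback genes near 0.

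Resting levels were compared between cell types with edgeR's quasi-likelihood test, fitted over all genes. The BMDM and hMPDM resting levels are the floor and the denominators of the rule that chose the 511 genes, and RAW had no floor, so the choice itself favours genes lower in RAW. The counts of calls are therefore a description, and nothing is read from their distance to the background. In RAW 253 (49.5%) were lower than in BMDM at an adjusted p under 0.05, against 34.9% of the genes past the floor and 31.3% of all 12461 genes tested. Higher in RAW were 136 (26.6%), against 28.9% and 27.1%. DESeq2 called 182 lower and 61 higher. The median log2 difference was -0.35, beside -0.06 for genes past the floor, and 146 genes (28.6%) were called lower with an estimate of at least 2-fold, against 12.1% of the genes past the floor. For higher genes this was 39 (7.63%), against 5.32%. With library size in place of TMM the calls were 220 lower and 169 higher, and over all genes tested 2868 and 4485 in place of 3901 and 3381. The fit takes the spread of the lone RAW and hMPDM libraries from the BMDM pairs, with a common coefficient of variation of 2.27% and 2 residual degrees of freedom, so adjusted p-values are optimistic if they vary more.

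The lists held different mixes of these calls, and the difference between lists was not tested. Of all genes past the floor, 34.9% were called lower in RAW and 28.9% higher. Shares over the other genes of each list were not counted, and the choice favours genes lower in RAW. The counts by list are therefore a description. Of the 21 transcription regulators 15 were lower in RAW and 2 higher, of the 12 receptors coupled to G proteins 10 were lower and 1 higher, and of the 8 ERK genes 7 were lower and 1 higher. All 6 clock genes and all 6 FoxO and PI3K genes were lower. Of the 17 replication genes 13 were higher in RAW and 3 lower, and of the 16 repair genes 7 were higher and 3 lower. Maf differed by -2.01 (SE 0.08) and Dusp6 by -2.63 (SE 0.13), whereas Msh6 was higher by 1.00 (SE 0.10). SE is the log2 value divided by the root of the F statistic and is not a replicate error.

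Of the 511 genes, 15 (2.94%) had no count in RAW at rest, against 0.724% of the other genes past the floor. All of them passed the floor through BMDM and hMPDM, and a gene silent there but high in RAW could not be among the 511, so that these bounds run one way by choice. A count of 0 allows 0.963 CPM there, so Ppp1r3b, a glycogen-targeting phosphatase subunit at 82.5 and 86.9 CPM in BMDM, was at least 88.0-fold higher in BMDM. The bounds were 34.3-fold for Peli2, a Pellino ubiquitin ligase, 33.4-fold for the phosphodiesterase Pde3b, 29.2-fold for the receptor Cd244a and 28.8-fold for the sterol-binding Osbp2. The insulin receptor substrate Irs2, Rapgef3 and Tlr5 were likewise at 0. Thbs1, by contrast, was counted in RAW and lower by 7.17 (SE 0.11). Highest in RAW relative to BMDM were Rasgrp3, a RAS exchange factor, by 3.10 (SE 0.10), the telomerase and snoRNP component Dkc1 by 2.46, the peroxin Pex10 by 2.21, and Dctd and Tbc1d16 by 2.19 each. Rasgrp3 was 17.7 and 16.3 CPM in BMDM at rest, and 45.0 CPM in hMPDM and 167 CPM in RAW, each in 1 library.

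**Figure D5:**
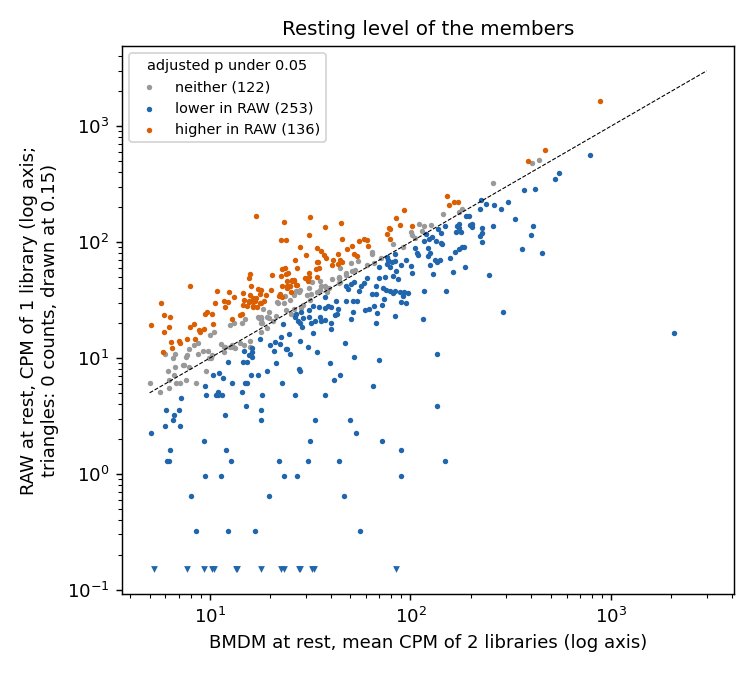
Resting level of the 511 genes in RAW (vertical, CPM of 1 library) against BMDM (horizontal, mean CPM of 2 libraries) on log axes, coloured by edgeR's call, with triangles for genes without a count in RAW. Blue points (253) are lower in RAW and orange points (136) higher, and some genes well counted in BMDM had no count in RAW.

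Between hMPDM and BMDM at rest the calls were balanced. Lower in hMPDM were 136 (26.6%), against 19.4% of genes past the floor and 19.2% of all tested, and higher were 145 (28.4%), against 22% and 19%. The median difference was -0.03, beside 0.01 for genes past the floor, and 18 lower (3.52%) and 12 higher genes (2.35%) had an estimate of at least 2-fold, against 1.89% and 1.62% of the genes past the floor. DESeq2 called 29 lower and 33 higher. Lowest were Bsn (-2.24, SE 0.12), Xylt1 (-1.78, SE 0.14) and Rassf8 (-1.59, SE 0.06). Highest were Osbp2 (2.07, SE 0.07), Scd2 (1.88, SE 0.04) and the developmental regulator Eya1 (1.88, SE 0.05). Osbp2 was 28.5 and 27.0 CPM in BMDM and 118 CPM in hMPDM, and Eya1 was 56.3 and 55.6 CPM and 209 CPM. They had 0 and 1 counts in RAW at rest, so that hMPDM was the high cell type for each.

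The 511 genes share few plain features. Summed exon length had a median of 4559 bases, against 3987 for the other genes past the floor, and both had a median of 10 exon blocks. A single exon block was found in 21 (4.11%), against 1.43% of the others. Protein-coding genes made up 494 (96.7%), against 98.7%, and 3 identifiers had no symbol. The genes lie on all chromosomes counted, with shares of the genes past the floor between 3.15% (chromosome 18) and 6.97% (chromosome 1).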

How the data were processed

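The deposited values are raw read counts by gene, without normalization. Per the submitters' processing notes, reads were handled with cutadapt, STAR, SAMtools, bedtools and featureCounts on mm10, with no versions. Polyadenylated RNA was extracted with TRIzol and made into KAPA stranded libraries read from one end, per the labels' protocols. Of 10 value columns, 8 matched a single sample and 2 were not used. Symbols came from a reference list of gene names (42462 of 43346 identifiers) and gene types from GENCODE.

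CPM is the count divided by the column sum. Log2 ratios used a prior count of 0.5. Resting levels were tested in edgeR 4.0.16 (R 4.3.3) with filterByExpr, TMM and a quasi-likelihood fit of 6 groups over all 8 libraries, with Benjamini-Hochberg adjustment over 12461 genes called at 0.05; DESeq2 1.42.0 was an alternative. Replicate pairs differed by more than sampling noise (chi-square per degree of freedom 1.60 at rest and 1.69 after LPS).

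The members, the gene lists and the tests were chosen with earlier results of these data known. Genes named are the 10 deepest losses, the 6 with most BMDM counts at rest, the 8 lowest and 6 highest RAW ratios at 5 CPM or more, the 5 largest called differences each way for RAW and 3 for hMPDM at rest, 3 on each side of the limit, and up to 5 per list by BMDM resting CPM. Others named from a list or at 0 in RAW were picked after their values were seen. Some genes that this rule names are not reported here.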

Additional observations from a re-analysis of the deposited data

Results flagged for a closer look

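For 6 named genes the counting interval of the RAW ratio lay above 1 although the ratio was at most 0.4 in BMDM and hMPDM. Gadd45a stood at 2.90 times its resting level in RAW, Fosl2 at 1.54, Snhg17 at 1.26, Plau, the urokinase gene, at 1.20 (1.14 to 1.27) and Cd300lb at 1.19. Myc stood at 8.08 (3.73 to 20.8) in RAW, from 7 counts at rest to 74 after LPS. The difference between the cell types was not tested for any of them, since RAW has 1 library per state. TMM scaling moves each of these ratios further up, by 1.07 times. The counting interval covers counting error only.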

How the results depend on the processing

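The number of genes that meet the rule depends on the scaling and the limit. TMM scaling raises the LPS to rest ratios by 0.37 (log2) in BMDM, 0.38 in hMPDM and 0.10 in RAW, and left 245 genes, all among the 511, of which 41 of 210 (19.5%) were at most 0.5 in RAW, against 0.643% of the others. DESeq2 size factors left 242, with 41 of 207 (19.8%) in RAW, against 0.656%. A limit of 0.3 gave 227 genes, with 49 (25.3%, against 1.18%) at most 0.5 in RAW and a median log2 RAW ratio of -0.69, and a limit of 0.5 gave 1057 genes with a median of -0.49. A RAW ratio of at most 0.4 was found for 27 genes (6.03%), against 0.272% of the others past the floor. With other floors, or after subtracting a share of the BMDM LPS level from the hMPDM LPS library (499 genes), counts stayed within 1.5 times. Leaving out each BMDM replicate gave 516 to 528 genes, 81 to 84 at most 0.5 in RAW and a median of -0.58 to -0.56.

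For resting levels, DESeq2 called 182 lower and 61 higher in RAW, and 29 lower and 33 higher in hMPDM. Over all genes it called 2365 and 2098 in RAW and 712 and 647 in hMPDM, against 3901, 3381, 2395 and 2371 by edgeR. A test against a fold change of 2 called 104 lower and 18 higher in RAW and 10 lower and 8 higher in hMPDM (all genes 1110, 713, 344 and 165). Leaving out each BMDM replicate gave 244 to 253 lower and 136 to 140 higher in RAW, and 116 to 146 lower and 120 to 153 higher in hMPDM. The cause of these moves was not tested. The fit with a replicate block gave 249 lower and 132 higher in RAW and 125 and 131 in hMPDM. The numbers pair no samples by the labels, and deviations of same-numbered BMDM libraries correlated at -0.0346.

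The shallow RAW libraries limit single ratios of genes near 5 CPM, and 1 library per state leaves the RAW and hMPDM responses without replicate error.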
